A study of Mus musculus with 2 samples.

Results

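Mir431, Mir433, Mir127, Mir434 and Mir136 are 5 microRNA genes of the imprinted Dlk1-Meg3 domain on mouse chromosome 12 whose hairpins are transcribed opposite the gene Rtl1. They were chosen by gene symbol from the 2202 microRNA genes counted, and all 5 were found once in both libraries. The libraries hold small RNA (inserts under 30 nt) of gastrocnemius, the large calf muscle, from female B6CASTF1/J mice aged 14 days, an F1 cross of C57BL/6J and CAST/EiJ. No treatment or second condition is named. There is 1 group of 2 biological replicates; the biosample of replicate 1 is named for 3 females and that of replicate 2 for 1, and both carry 1 donor identifier. The SD between them is therefore the spread between these samples, which may in part be technical.

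microRNAs are cut from hairpin precursors and steer silencing complexes to messenger RNAs, mainly through their seed, bases 2 to 8 of the mature strand. The Dlk1-Meg3 domain expresses its noncoding RNAs, microRNAs included, from the maternal chromosome. Rtl1, a protein-coding gene derived from a retrotransposon and needed in placenta and fetal muscle, is expressed from the paternal chromosome. The microRNAs opposite Rtl1 match its messenger RNA along their whole length and are known to direct its cleavage. By the naming of this cross the mother is C57BL/6J, the strain of the reference genome. The deposited counts do not separate parental alleles, and Rtl1 messenger RNA was not measured in these small RNA libraries.

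All 5 hairpins lie on the plus strand, and Rtl1 (chromosome 12, 109589193 to 109600330, mm10) lies on the minus strand. Each hairpin falls wholly within the Rtl1 coding sequence, a single block of 5232 bases in exon 2 of 2. Together they span 4942 bp. Counted from the first base of the Rtl1 start codon, Mir136 (109595327 to 109595388) covers coding bases 16 to 77 and Mir434 (109594506 to 109594599) bases 805 to 898. Mir127 (109592846 to 109592915) covers bases 2489 to 2558, Mir433 (109591715 to 109591838) bases 3566 to 3689 and Mir431 (109590447 to 109590537) bases 4867 to 4957. The members are thus spread over nearly the whole reading frame.

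The 5p and 3p arms of a hairpin were counted as 1 gene. Both mature strands are shown for every member, since either could have given its reads. RefSeq (GRCm38.p6) held all 5 hairpins, at the same positions as the annotation used for counting, and 10 mature strands. Capitals mark the seed.
mmu-miR-431-5p: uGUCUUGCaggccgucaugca
mmu-miR-431-3p: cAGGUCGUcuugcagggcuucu
mmu-miR-433-5p: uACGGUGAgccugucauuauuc
mmu-miR-433-3p: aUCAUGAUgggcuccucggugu
mmu-miR-127-5p: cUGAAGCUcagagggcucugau
mmu-miR-127-3p: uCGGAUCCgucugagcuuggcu
mmu-miR-434-5p: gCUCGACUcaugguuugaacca
mmu-miR-434-3p: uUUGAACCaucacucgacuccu
mmu-miR-136-5p: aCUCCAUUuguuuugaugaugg
mmu-miR-136-3p: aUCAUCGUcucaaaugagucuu

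No 2 of the 10 share a seed, and no seed occurs in any other mature microRNA of the RefSeq table. Of all 1679 mature microRNAs there, 72.1% have a seed of their own, as do 70 of the 100 mature strands from the rest of the domain. Over bases 2 to 7 alone, miR-433-5p matches miR-6973a-5p and miR-433-3p matches miR-3088-3p. The 5 genes are therefore neighbours that do not form a seed family.

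The members also share little sequence with other hairpins. Their longest stretch in common with another annotated hairpin, read in the same direction, was 12 nt for Mir431, Mir433 and Mir127 and 11 nt for Mir434 and Mir136. No mature strand occurred in a transcript of another gene. Reads that align to several places enter no gene's count in this layout, and within the annotated transcripts no other source of the full mature strands was found. The whole genome was not searched.

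Repeats stand out inside Mir434 and Mir431. The stretch UUUGAACCA of 9 nt occurs in both mature strands of Mir434 and 3 times in its hairpin, and GUCUUGCAGG of 10 nt occurs in both mature strands of Mir431. In Mir433, Mir127 and Mir136 the 2 mature strands share at most 5 nt. The Mir434 hairpin is shown for its repeats, Mir127 as the most abundant member and Mir136 as the least, with mature strands in capitals.
Mir434: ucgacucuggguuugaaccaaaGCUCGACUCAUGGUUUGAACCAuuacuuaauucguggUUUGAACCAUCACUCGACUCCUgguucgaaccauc
Mir127: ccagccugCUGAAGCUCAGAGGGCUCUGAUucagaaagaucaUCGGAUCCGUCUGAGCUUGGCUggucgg
Mir136: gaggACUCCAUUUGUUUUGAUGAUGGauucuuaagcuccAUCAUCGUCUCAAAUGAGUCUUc

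On the Rtl1 messenger RNA, each of the 10 mature strands had exactly 1 full-length complementary site, which its position opposite Rtl1 provides. The sites for miR-127-3p (coding bases 2495 to 2516) and miR-434-3p (818 to 839) are given 5′ to 3′ along Rtl1, with the bases that pair with the seed in capitals.
Rtl1 site of miR-127-3p: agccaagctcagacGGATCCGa
Rtl1 site of miR-434-3p: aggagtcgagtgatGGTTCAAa

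Seed matches alone, searched on the Rtl1 messenger strand only, were more numerous for Mir434. The match of miR-434-3p, GGTTCAA, occurred 4 times, 3 of them inside the Mir434 hairpin, and that of miR-434-5p, AGTCGAG, 3 times, 2 of them inside it. Among 1207 other protein-coding transcripts within 10% of the Rtl1 transcript length of 6358 nt, 24.4% held GGTTCAA and 8.29% held AGTCGAG at least once, and none held either as often as Rtl1. The match of miR-431-5p, GCAAGAC, occurred 3 times, 2 of them inside the Mir431 hairpin (32.1% of those transcripts held it, 0.911% as often). That of miR-127-3p, GGATCCG, occurred once (10.4% held it). Those of miR-431-3p and miR-136-5p occurred 2 times each (1.08% and 16.2% of the transcripts held them as often), and those of the remaining strands once. Every strand has at least 1 match in its full-length site, and repeats within the Mir434 and Mir431 hairpins add copies. The comparison with other transcripts is therefore no independent test. These matches describe the sequence and do not show that a site is used.

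Replicate 1 had 2672454 reads assigned to microRNA genes and replicate 2 had 4292012. Levels are in CPM, the count on the gene's strand scaled to 1000000 of these reads, so that 1 read was worth 0.374 CPM in replicate 1 and 0.233 CPM in replicate 2. Exact 95% binomial intervals are given for shares and ratios and cover counting error only. Of 8 skeletal muscle microRNA genes, 7 reached 1 CPM in both libraries and their summed level was 96243 and 85727 CPM, nearly all from Mir206 (95105 and 84695 CPM). Copies such as Mir1a-1 and Mir1a-2 share mature sequence, and reads that align to both enter neither. Multiply aligned reads made up 52.7% and 52.4% of the libraries, so all shares and ranks given here hold among uniquely aligned reads in microRNA genes, and genes with duplicate copies are undercounted. Of 6 neural genes (Mir124a and Mir9 copies), 5 had no read and the sum was 0 and 0.932 CPM. These too are duplicate copies, so their low counts do not show that neural microRNAs were absent. Liver Mir122 had 229 and 14.2 CPM, and the erythroid genes Mir451a and Mir144 together 437 and 185 CPM. The 4 leukocyte genes (Mir142, Mir223, Mir150 and Mir155) summed to 1185 and 853 CPM, and endothelial Mir126a, the most abundant gene, had 118724 and 119268 CPM.

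Together the 5 genes held 8.32% of counts in replicate 1 (interval 8.29 to 8.36) and 9.47% in replicate 2 (9.45 to 9.50), a mean of 8.90% ± 0.814 (SD, n = 2). All 5 reached 1 CPM in both libraries, against 367 of all 2202 genes. Levels of 1000 CPM or more were reached by 4 of the 5, by 15 of the other 60 genes of the domain and by 69 of all genes.

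Mir127, studied in satellite cells of muscle, where it promotes differentiation, was the most abundant member. It had 168322 reads (62984 CPM) in replicate 1 and 303565 reads (70728 CPM) in replicate 2, which gives 66856 ± 5476 CPM (SD, n = 2). Among these uniquely aligned reads it was rank 4 of all microRNA genes in each library and the highest of the domain. Mir411, the next of the domain at 33509 ± 6483 CPM, was 2.18-fold and 1.86-fold lower in the same libraries.

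Mir431, known to promote myogenic differentiation through the satellite cell factor Pax7, came second among the members. It had 27360 reads (10238 CPM) and 53692 reads (12510 CPM), a mean of 11374 ± 1607 CPM, rank 19 of all genes and 5 of the domain.

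Mir434, whose 3p strand has been studied in loss of muscle with age, followed at 20228 reads (7569 CPM) and 35937 reads (8373 CPM). Its mean was 7971 ± 568 CPM, rank 24 of all genes and 7 of the domain.

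Mir433, known as a regulator of the bone factor Runx2, had 6051 reads (2264 CPM) and 12837 reads (2991 CPM). Its mean was 2628 ± 514 CPM, rank 52 of all genes and 13 of the domain. Its SD was 19.6% of the mean, the largest of the 5.

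Mir136 was far below the others, with 490 reads (183 CPM) in replicate 1 and 633 reads (147 CPM) in replicate 2. Its mean was 165 ± 25.4 CPM, rank 148 of all genes and 42 of the domain. It was the only member under 1000 CPM and the only one higher in replicate 1.

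**Figure D1:**
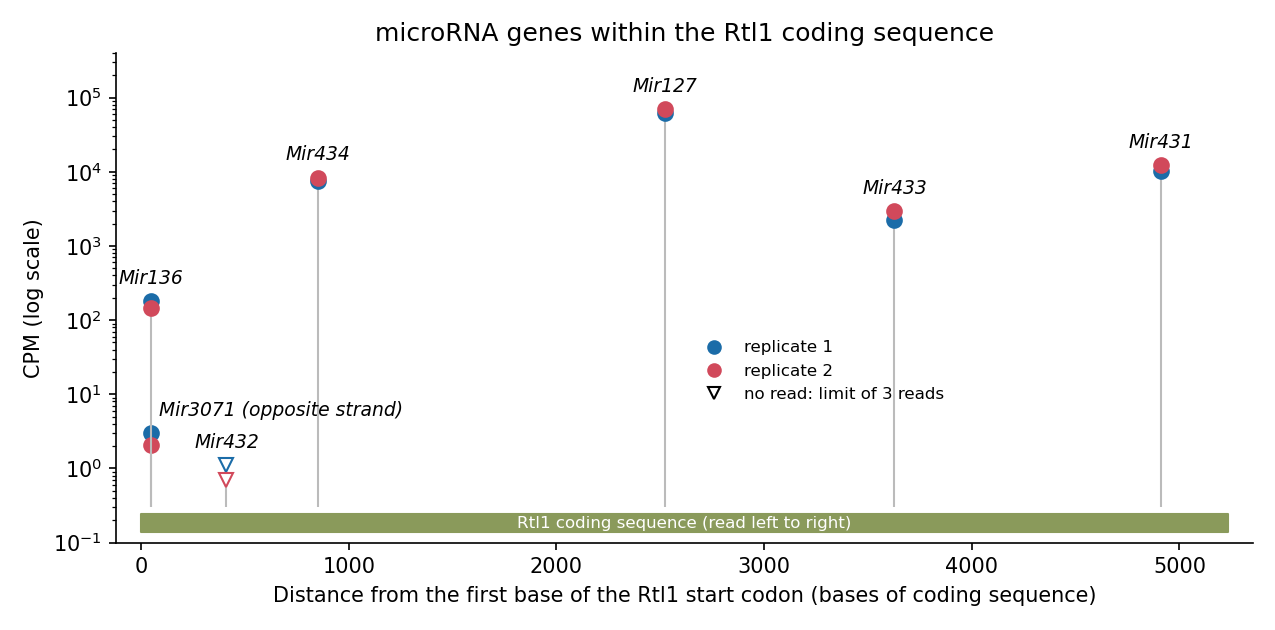
CPM of each microRNA gene (vertical log axis) at its place along the Rtl1 coding sequence (horizontal axis, bases from the start codon), one filled point per replicate; open triangles stand at the limit of 3 reads where a gene had none. Mir127, near the middle, is highest at 62984 and 70728 CPM, and Mir136, at the start codon end, is the lowest of the 5 members at 183 and 147 CPM.

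The order Mir127, Mir431, Mir434, Mir433, Mir136 was the same in both libraries, and no 2 neighbours in it overlapped in range. The steps were unequal. Mir127 exceeded Mir431 by 6.15-fold in replicate 1 (interval 6.07 to 6.23) and 5.65-fold in replicate 2 (5.60 to 5.71). Mir431 exceeded Mir434 by only 1.35-fold (1.33 to 1.38) and 1.49-fold (1.47 to 1.51).

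Mir434 exceeded Mir433 by 3.34-fold (3.25 to 3.44) and 2.80-fold (2.74 to 2.86). The step from Mir433 down to Mir136 was 12.3-fold (11.3 to 13.6) and 20.3-fold (18.7 to 22.0), and it changed most between the libraries. From top to bottom, Mir127 exceeded Mir136 by 344-fold (314 to 376) in replicate 1 and 480-fold (444 to 519) in replicate 2. A read here is 1 mature strand, so CPM was not divided by length; per hairpin base the order is the same and the mean Mir127 level was 7.64-fold that of Mir431 and 358-fold that of Mir136.

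Within the 5, Mir127 accounted for 75.7% (replicate 1) and 74.6% (replicate 2) of the reads. Mir431 held 12.3% and 13.2%, Mir434 9.09% and 8.84%, Mir433 2.72% and 3.16%, and Mir136 0.220% and 0.156%. The counting intervals of the 2 libraries did not overlap for any of the 5 shares, for example 12.2 to 12.4 against 13.1 to 13.3 for Mir431 and 0.201 to 0.241 against 0.144 to 0.168 for Mir136.

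Levels did not follow position along Rtl1: the highest member lies near the middle of the coding sequence and the lowest at its start. Hairpin GC content was 40.3% for Mir136, the lowest of the 5, and 45.7% for Mir434, 56.5% for Mir433, 57.1% for Mir127 and 60.4% for Mir431. Predicted folding energy per base ran from -0.36 kcal/mol for Mir433 to -0.50 kcal/mol for Mir127, with Mir136 at -0.45. Whether GC content plays a part in the order of levels was not tested.

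The genes next to each member in mean level, over these 2 libraries, came from other loci in 9 of 10 cases. Mir127 lay between Mir206 (89900 ± 7361 CPM), a skeletal muscle microRNA, and Mirlet7g (50174 ± 3145 CPM), and overlapped neither in range. Mir431 lay between Mir335 (12374 ± 603 CPM), whose range it overlapped, and Mir30d (9951 ± 147 CPM), whose range it did not.

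Mir434 lay below Mir541 (9057 ± 506 CPM), a gene of the same domain that it did not overlap, and above Mir195a (7963 ± 253 CPM), which lay inside its range. Mir433 could not be separated from Mir130a (2660 ± 72.2 CPM) and Mir10a (2554 ± 174 CPM), nor Mir136 from Mir450b (170 ± 5.26 CPM) and Mirlet7f-1 (164 ± 9.81 CPM). Mirlet7f-1 has an identical mature copy elsewhere, so its count is a lower bound.

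**Figure D2:**
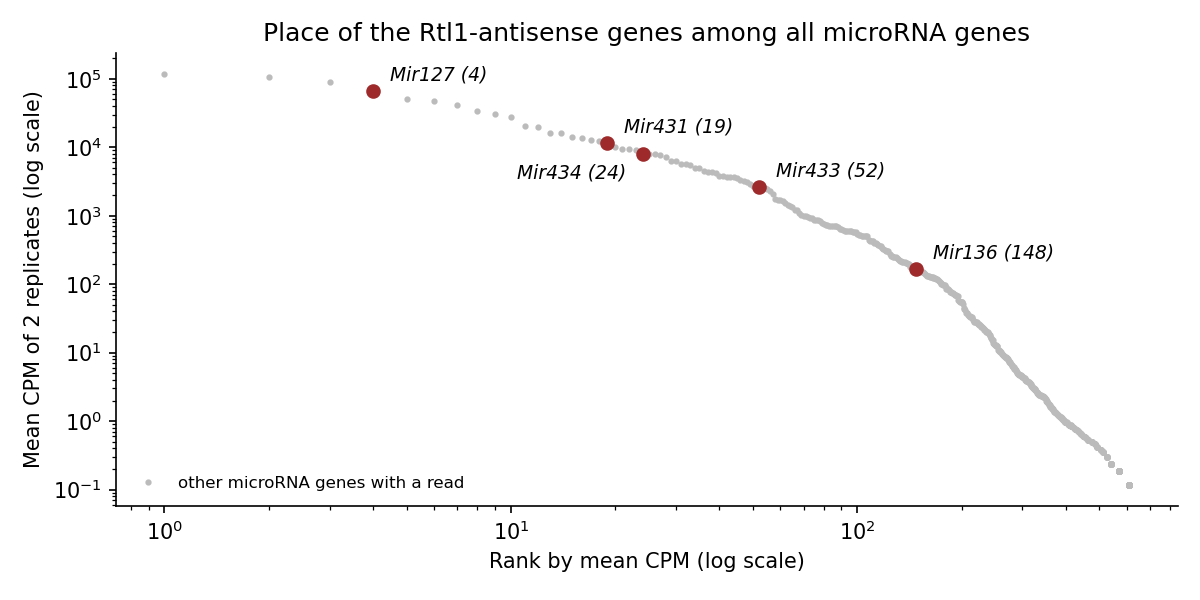
Mean CPM of 2 replicates (vertical log axis) against rank (horizontal log axis) for every microRNA gene with a read in grey, with the 5 members in red and their ranks in brackets. The members run from rank 4 (Mir127) to rank 148 (Mir136).

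The Rtl1 region holds 2 further annotated microRNA genes. Mir432 (109594956 to 109595030, plus strand) lies between Mir434 and Mir136 and had no read in either library. A limit of 3 reads corresponds to 1.12 CPM in replicate 1 and 0.699 CPM in replicate 2. Mir434, 356 bp away on the same strand, stood at 7971 CPM. Neighbouring hairpins on 1 strand were therefore not recovered at like levels.

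Mir3071 (109595318 to 109595397) lies on the minus strand, that of Rtl1, and encloses Mir136. It had 8 reads (2.99 CPM) in replicate 1 and 9 reads (2.10 CPM) in replicate 2. Of all reads at the place, the strand opposite Mir136 took 1.61% (interval 0.696 to 3.14) and 1.40% (0.643 to 2.64), so nearly all lay on the Mir136 strand. When strand is ignored both genes have 0 reads in both libraries, because the counting sets aside reads that overlap 2 microRNA genes.

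At the other members the Rtl1 strand was almost empty. No read lay opposite Mir431, Mir433 or Mir127. The upper ends of the exact intervals were 0.0135%, 0.0609% and 0.00219% of their reads in replicate 1. In replicate 2 they were 0.00687%, 0.0287% and 0.00122%. Opposite Mir434 there were 4 reads (0.0198%, interval 0.00539 to 0.0506) and 2 reads (0.00556%, 0.000674 to 0.0201). Over the 2138 microRNA genes with no counted microRNA gene opposite, this share was 0.00178% and 0.00112%. That set includes Mir431, Mir433, Mir127 and Mir434 themselves, so it is not a separate background.

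In the domain, defined here as the 65 annotated microRNA genes from Mir770 to Mir3072 on both strands, the 5 members took 42.9% of the domain's reads in replicate 1 (interval 42.8 to 43.0) and 42.7% in replicate 2 (42.6 to 42.8). Mir127 alone held 32.5% and 31.8%. The 49 distal genes held 50.9% and 51.2%. The 9 Meg3-proximal genes, from Mir770 to the last that ends before Mir431, held 6.16% and 6.11%. The 3 parts kept their order in both libraries.

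The members' median level was 7971 CPM, the distal median 277 CPM and the Meg3-proximal median 700 CPM. The members' median leaves out Mir432 (0 CPM) and Mir3071 (2.55 CPM) of the same region. The distal median includes 7 genes without a read. The highest distal genes were Mir411 and Mir379 (16014 ± 986 CPM), and the highest Meg3-proximal genes Mir337 (4957 ± 213 CPM) and Mir540 (3203 ± 380 CPM). Of the 60 other genes of the domain, 49 reached 1 CPM in both libraries and 8 had no read in either, Mir432 and 7 distal genes. Median hairpin GC content was 56.5% in the members, 55.1% in the Meg3-proximal genes and 45.1% in the distal genes.

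**Figure D3:**
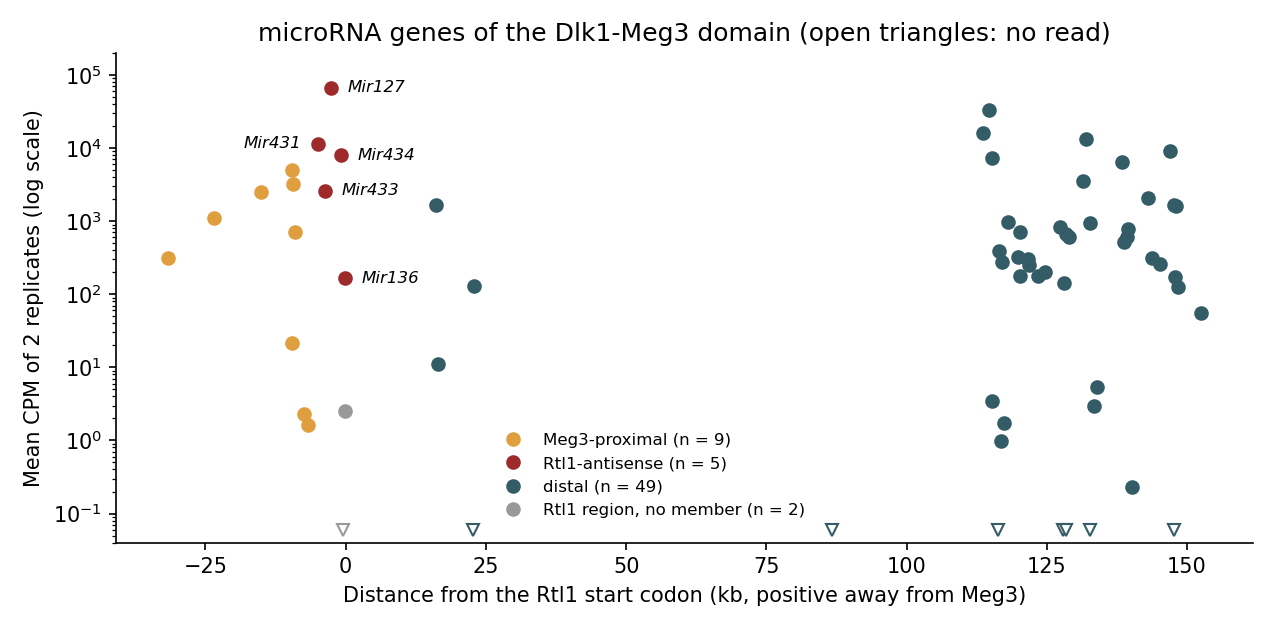
Mean CPM of 2 replicates (vertical log axis) of the 65 microRNA genes of the domain against distance from the Rtl1 start codon in kb (horizontal axis), coloured by part, with open triangles for genes without a read. Mir127 is the highest point, at 66856 CPM, and Mir136, at 165 CPM, lies below the distal median of 277 CPM.

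Between the libraries, 4 members were higher in replicate 2 and Mir136 was lower, each with a counting interval that excludes 1; the directions of Mir127 and Mir434 flip when the domain total is the denominator. Of the 260 genes averaging at least 10 CPM, 33.1% had such an interval above 1 and 25.8% one below 1, so these intervals are common in both directions. With 1 library a side these ratios compare libraries, and no p-value was computed.

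Mir433 was 1.32-fold higher in replicate 2 (interval 1.28 to 1.36) and Mir431 1.22-fold (1.20 to 1.24). Mir127 was 1.12-fold higher (1.12 to 1.13) and Mir434 1.11-fold (1.09 to 1.13), and their intervals overlap. Mir136 was 1.24-fold higher in replicate 1 (1.10 to 1.40). Apart from the pair Mir127 and Mir434, the members' intervals did not overlap, so 1 common factor does not describe the 5 within counting error.

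On the log2 scale, replicate 2 over replicate 1, the members ran from -0.31 to 0.40 with a median of 0.17. Over all 260 genes the median was 0.04, over 36 distal genes 0.19 and over 7 Meg3-proximal genes 0.19. Summed, the 5 were 1.14-fold higher in replicate 2 (1.13 to 1.14), the distal genes 1.15-fold and the Meg3-proximal genes 1.13-fold. Relative to the total of the domain, Mir127 and Mir434 had log2 ratios of -0.03 and -0.05, Mir431 and Mir433 0.09 and 0.21, and Mir136 -0.51.

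The median gene of the 260 was 1.13-fold apart between the libraries, and the median member 1.22-fold. Over the 176 genes averaging at least 100 CPM the median was 1.12-fold. Among the 260, 79.2% of genes lay closer together than Mir433 did, 70.4% than Mir136, 67.7% than Mir431, 46.5% than Mir127 and 39.2% than Mir434. Genes near 10 CPM rest on few reads, which widens their ratios, so the 260 are not matched to the members in level. Liver Mir122, both erythroid genes and 3 of the 4 leukocyte genes, summed above, were higher in replicate 1, as was Mir136. In all, 120 of the 260 genes were higher in replicate 1, skeletal muscle Mir206 among them, and 140 in replicate 2. Leukocyte Mir223 (120 and 124 CPM) and endothelial Mir126a were at nearly the same level in both libraries. Their part in these ratios was not tested.

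**Figure D4:**
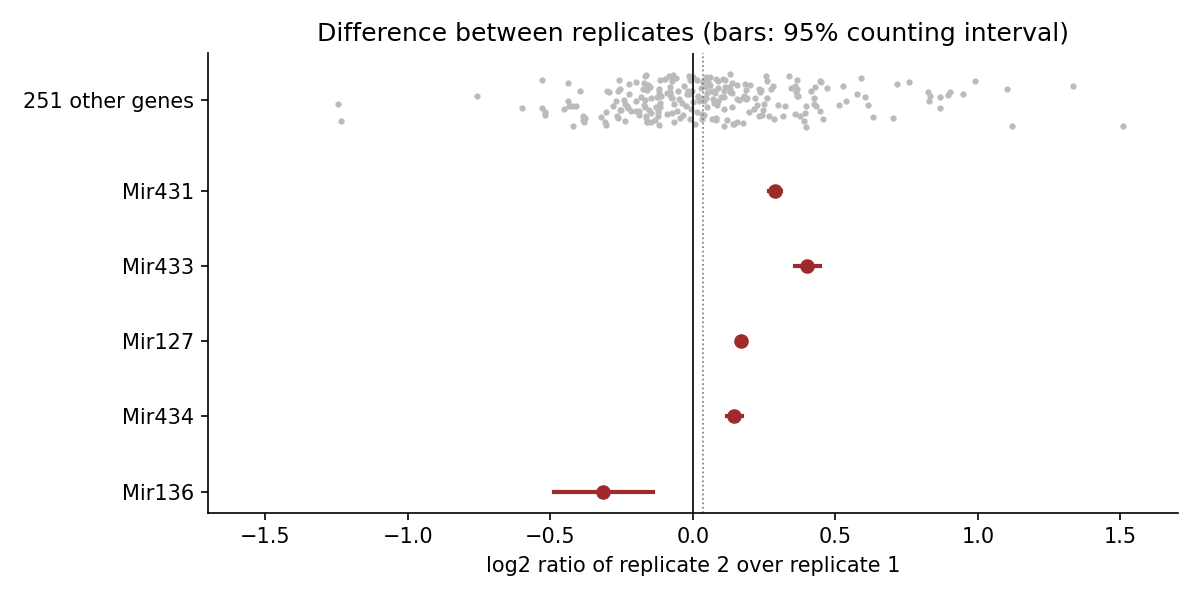
log2 ratio of replicate 2 over replicate 1 (horizontal axis) for the 5 members in red with 95% counting intervals, and for 251 of the other 255 genes averaging at least 10 CPM in grey (4 lie beyond the axis); the dotted line is the median of all 260. Per all assigned reads Mir431, Mir433, Mir127 and Mir434 lie to the right of 0 and Mir136 to the left (Mir127 and Mir434 fall below 0 relative to the domain total), all within the spread of the other genes.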

How the data were processed

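The authors deposited raw read counts per microRNA gene, 3 count columns per library, on mm10 and GENCODE M21 per the notes deposited beside them. Neither aligner nor counter is given in the sources used here. Column 3, taken from the layout as the strand of the gene, was used. The 4 lines naming no gene (66.6% and 64.6% of reads) stayed out of totals. In all, 33.4% and 35.4% of reads were assigned.

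CPM is the count over the column total. Shares have exact Clopper-Pearson intervals, and library ratios intervals from the binomial split of their reads. The ratio intervals were tried on simulated counts that held counting error only, so that trial does not cover differences between samples. With 1 group no test was made. Members and lists were chosen with earlier results of these data known. Text names the members, other genes in the Rtl1 region, each member's neighbours in rank, and the 2 leading genes of each domain part. Genes sharing a seed were to be named, and none did. Sequences are from RefSeq (GRCm38.p6) and GENCODE transcripts. Hairpins were folded with ViennaRNA 2.7.2. Alternatives used edgeR 4.0.16 (TMM) and DESeq2 1.42.0 size factors, with Python 3.11.15, scipy 1.17.1 and R 4.3.3.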

Additional observations from a re-analysis of the deposited data

Results flagged for a closer look

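Reads on the strand opposite a member lie outside the levels reported above and exceeded the 3 reads that a count of 0 allows in 3 cases. Opposite Mir136 there were 8 reads in replicate 1 and 9 in replicate 2, which are the reads of Mir3071. Opposite Mir434 there were 4 reads in replicate 1, and the 2 in replicate 2 stayed under that limit.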

How the results depend on the processing

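Of 72 alternative values, 45 moved by less than the spread between replicates or stayed within the counting interval, 25 moved further and 2 changed sign. The 45 include the values from 1 library alone, which say nothing about stability. With n = 2 each library always lies closer to the mean than the SD. Also among the 45 are the mean levels under TMM and DESeq2 factors. These factors scale the 2 libraries in opposite directions (TMM 0.99 and 1.01), so a mean level could hardly move. With strand ignored, the share of the 5 rose from 8.90% to 11.9% and their share of the domain from 42.8% to 46.3%. This is because reads at places with microRNA genes on both strands leave the totals, and Mir136 fell to 0 reads. Over all mapped reads the share was 3.44%, and without Mir126a in the total it was 10.1%. TMM and DESeq2 factors lowered every log2 ratio by a like amount, so the median over the 5 was 0.138 and 0.149, and no member changed direction. With the domain total as denominator, the log2 ratios of Mir127 (-0.028) and Mir434 (-0.049) changed sign. Each library alone gave a share of 8.32% or 9.47%. No paired analysis was possible because there is 1 group. With n = 2, SDs are rough, and Mir432 (0 reads) and Mir3071 (8 and 9 reads) are limited by depth.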
